A study of Mus musculus with 12 samples.

Results

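The caspase genes described here were *Casp1*, *Casp2*, *Casp4*, *Casp6*, *Casp8*, *Casp9* and *Casp12*, taken by symbol with 1 row for each, and they are 7 of the 35275 genes listed and 7 of the 11 listed under a symbol of Casp and a number. RNA with poly(A) tails was sequenced from kidney tissue, not sorted into cell types, of 12 C57BL/6J mice at 6 months of age, in 3 groups of 4. The WT mice carried neither mutation. The RC/RC mice were homozygous for RC, a knock-in missense allele of *Pkd1* that leaves the gene partly active and gives a slowly progressive model of autosomal dominant polycystic kidney disease. The RC/RC:*Casp1*KO mice carried the same 2 RC alleles and were in addition homozygous for Del3, a short germline deletion in *Casp1* made with TALENs, so every RC/RC:*Casp1*KO mouse also had the *Pkd1* mutation and no group lacked *Casp1* on a normal *Pkd1* background. The labels give 2 females and 2 males in each group, but the columns of the table carry a group and a mouse number and no sex, so the sexes were analyzed together. Mice are named here as the table names them, and RC105 (RC/RC) and Del3_105 (RC/RC:*Casp1*KO) are different animals. The reads counted on genes were 20556335 to 22656309 in WT, 18019819 to 24284831 in RC/RC and 18738755 to 24869454 in RC/RC:*Casp1*KO kidneys. At these depths 3 reads, taken as the smallest signal told from none, are 0.115 to 0.166 CPM, the reads on a gene scaled to a fixed total per library with TMM factors. Genes that define kidney epithelium were abundant in WT, with the proximal tubule phosphate transporter *Slc34a1* at 5850 ± 844 CPM and the thick ascending limb gene *Umod* at 3948 ± 911 CPM (SD, n = 4).

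Caspases are proteases with a cysteine in the active site, made as inactive precursors that become active when they are brought together on a platform. Caspase-1 is activated on inflammasomes, where sensors such as NLRP3 and AIM2 meet the adaptor ASC, and it cleaves the precursors of the cytokines IL-1β and IL-18 and the pore-forming protein gasdermin D. *Casp4* encodes the mouse protease that binds bacterial lipopolysaccharide in the cytosol and also cleaves gasdermin D, and *Casp12* encodes a related protease of the same branch that has been linked to stress of the endoplasmic reticulum. Caspase-8 acts at death receptors, caspase-9 at the apoptosome, caspase-2 at the PIDDosome, and caspase-6 is an executioner that cuts lamins. In the kidney, inflammasome activity is best known in macrophages and dendritic cells.

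*Casp1*, *Casp4* and *Casp12* lie side by side on the plus strand of chromosome 9. In the deposited coordinates (mm10) *Casp1* (ENSMUSG00000025888) runs from 5298517 to 5307265, *Casp4* (ENSMUSG00000033538) starts 1562 bases after its end and runs from 5308828 to 5336783, and *Casp12* (ENSMUSG00000025887) starts 38164 bases after the end of *Casp1* and runs from 5345430 to 5373032. No other listed gene lay within 500000 bases of *Casp1*. The remaining members are on other chromosomes, *Casp6* on chromosome 3, *Casp9* on chromosome 4, *Casp2* on chromosome 6 and *Casp8* on chromosome 1. The stretch at which the knockout allele was made is shown first, because every comparison with RC/RC:*Casp1*KO kidneys rests on it. It spans chr9:5303749-5303793 on the plus strand in GRCm39, at the 3′ end of exon 6 of *Casp1*, and was read from the reference sequence. Capitals mark the 15-base gap between the 15-base binding sites of the TALEN pair.
Casp1 target: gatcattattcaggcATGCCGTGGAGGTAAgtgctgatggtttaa
Exon 6 runs from 5303540 to 5303774 in that build, so 26 of the 45 bases are coding exon and the rest are intron. The gap holds the last 11 bases of the exon, with the codon of the active-site cysteine, and the GT of the splice donor at 5303775 to 5303776. The *Casp1* transcript used for these positions has 10 exons, of which 9 hold coding sequence. The table counts reads per gene and not per exon, so a count on *Casp1* sums reads from every exon and does not measure the deleted bases by themselves.

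The promoters of the 3 neighbours are shown because their genes rose together in RC/RC kidneys, as the values further on give. Each is the 250 bases before the RefSeq transcript start that the promoter table gives in GRCm38.p6, plus strand, from chr9:5298267-5298516 for *Casp1*, chr9:5308599-5308848 for *Casp4* and chr9:5345226-5345475 for *Casp12*. The start used for *Casp1* is that of the deposited gene, while those used for *Casp4* and *Casp12* lie 21 and 46 bases inside the deposited genes. Capitals mark matches, on either strand, to GGG and CC spaced by 5 bases, letters common to many NF-kB sites, in *Casp1* and *Casp4*, and to TTCNNNGAA, the core of STAT sites, in *Casp12*.
Casp1 promoter: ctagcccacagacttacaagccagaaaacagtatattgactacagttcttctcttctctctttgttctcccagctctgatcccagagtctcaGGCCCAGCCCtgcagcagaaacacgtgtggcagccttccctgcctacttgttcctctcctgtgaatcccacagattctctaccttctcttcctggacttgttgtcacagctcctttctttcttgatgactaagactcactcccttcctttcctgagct
Casp4 promoter: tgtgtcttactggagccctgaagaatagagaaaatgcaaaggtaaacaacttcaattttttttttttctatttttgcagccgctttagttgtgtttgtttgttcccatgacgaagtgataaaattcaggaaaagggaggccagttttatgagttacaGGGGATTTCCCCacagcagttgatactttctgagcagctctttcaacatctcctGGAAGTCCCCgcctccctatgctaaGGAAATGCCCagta
Casp12 promoter: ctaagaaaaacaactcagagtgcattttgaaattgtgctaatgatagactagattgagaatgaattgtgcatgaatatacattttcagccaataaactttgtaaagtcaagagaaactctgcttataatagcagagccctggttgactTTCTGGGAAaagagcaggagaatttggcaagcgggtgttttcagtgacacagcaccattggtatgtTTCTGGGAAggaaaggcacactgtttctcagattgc
*Casp12* held 2 copies of the STAT core, both reading TTCTGGGAA on the plus strand, at 102 to 94 and at 36 to 28 bases before the transcript start, the second of them inside the gene as deposited. This core was present in 7.18% of the 27025 RefSeq promoters searched and in no other member. *Casp4* held 5 overlapping or separate matches to the spaced GGG and CC, 3 of them within GGGGATTTCCCC at 93 to 82 bases before the transcript start and 1 inside the gene as deposited. *Casp1* held 1 such match, *Casp6* and *Casp9* 2 each and *Casp2* none, and these loose letters were present in 45.4% of all promoters. The interferon-stimulated response core, GAAA and GAAA spaced by 2 bases (3.04% of promoters), and the TATA box TATAAA (13.0%) were found in none of the 7 stretches. The stretch of *Casp8* held no match to any of these letters, but its transcript start lies 7128 bases inside the deposited gene, so the listed start of *Casp8* was not searched. These matches describe letters and not bound sites, and the files hold no binding data.

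Compared per base of gene length, the 7 genes fell into an abundant and a scarce set in WT. In FPKM, which scales reads to listed gene length and to the reads counted, *Casp6* had the highest mean in every group. Its level was 14.2 ± 1.84 in WT, 13.8 ± 0.888 in RC/RC and 13.4 ± 0.628 in RC/RC:*Casp1*KO kidneys (SD, n = 4). It was followed in every group by *Casp8*, *Casp9* and *Casp2*, whose group means were 4.91 to 10.9 FPKM. In WT the ranges of *Casp6* and *Casp8* overlapped, with *Casp6* higher in 3 of the 4 mice. *Casp8* and *Casp9* overlapped in RC/RC and in RC/RC:*Casp1*KO kidneys. *Casp1*, *Casp4* and *Casp12* were below the other members in WT, where *Casp2* exceeded the next gene, *Casp1*, by 5.11-fold with no overlap between mice. In RC/RC kidneys *Casp2* exceeded the next gene, *Casp12*, by only 1.44-fold. Their ranges overlapped there, although *Casp2* was higher within each of the 4 mice. Among the scarce genes the order differed by group. In WT the means were 0.962 FPKM for *Casp1*, 0.899 for *Casp12* and 0.854 for *Casp4*, and these neighbours in the order overlapped between mice. In RC/RC kidneys *Casp12* came first at 3.57 FPKM, above *Casp1* at 2.38 and *Casp4* at 2.13, and the ranges of these neighbours again overlapped, although *Casp12* exceeded *Casp1* within each of the 4 mice. In RC/RC:*Casp1*KO kidneys *Casp4* at 2.08 FPKM and *Casp12* at 1.88 overlapped, and *Casp1* at 0.484 was below every value of both. Together *Casp1*, *Casp4* and *Casp12* made up 5.22% ± 0.977 of the summed CPM of the 7 genes in WT, 14.6% ± 3.04 in RC/RC and 8.13% ± 2.94 in RC/RC:*Casp1*KO kidneys (SD, n = 4).

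The libraries of a group were not equally alike. In WT, mice B6_2 and B6_3 and mice B6_4 and B6_6 differed by a chi-square of 17.7 and 16.4 per degree of freedom over genes, where sampling noise alone gives about 1, and pairs across these by 89.8 to 127. In RC/RC:*Casp1*KO, mice Del3_60 and Del3_105 differed by 15.7 and mice Del3_42 and Del3_70 by 31.8, and pairs across these by 67.1 to 93.4, while the RC/RC pairs ranged from 37.2 to 128. The mice were not assigned to a sex from these values, and the part of this split in the results was not tested. One library stood apart from the others of its group. RC/RC:*Casp1*KO mouse Del3_70 had a summed level of 153 CPM over the pan-leukocyte genes *Ptprc*, *Cd53*, *Coro1a* and *Laptm5*, against 54.5, 66.5 and 73.8 CPM in the other 3 mice of that group and 99.5 to 154 CPM in RC/RC mice. It also had the highest level of *Casp1*, *Casp4* and *Casp12* in its group, so the calls of members and lists that changed without it are given below.

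**Figure D1:**
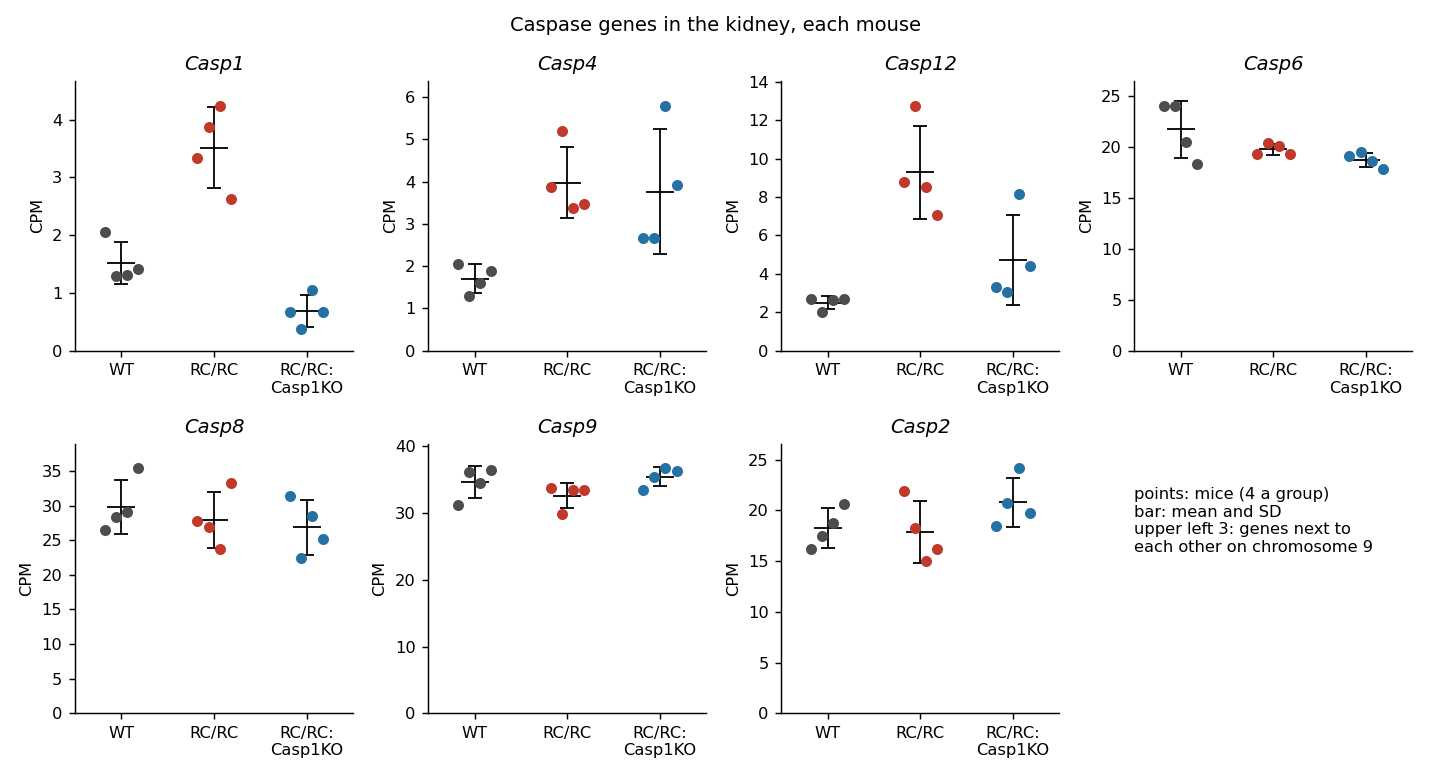
CPM of each caspase gene (y axis, linear, from 0) in the 3 groups (x axis); points are single mice and bars the mean and SD of 4 mice. *Casp1*, *Casp4* and *Casp12* of all RC/RC mice lie above all WT mice, the *Casp1* values of RC/RC:*Casp1*KO mice lie at 0.382 to 1.06 CPM below every other mouse, and the groups overlap for *Casp6*, *Casp8*, *Casp9* and *Casp2*.

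The first comparison, RC/RC against WT, shows which caspase transcripts were changed in the cystic kidney. The 3 inflammatory caspases on chromosome 9 rose and the 4 apoptotic members did not pass the test. In a fit over all genes with edgeR's quasi-likelihood test, 3 of the 7 members were called at an adjusted p under 0.05, all higher in RC/RC, where 12.9% of the 15243 genes tested were called, 9.76% higher and 3.18% lower. An unadjusted p under 0.05 was reached by 29.2% of these genes, and DESeq2's Wald test called 16.7% of the 18122 genes it gave an adjusted p. Leaving out 1 mouse kept the count of members at 3 in all 8 cases, while the count over all genes, 1971, fell to 1162 without WT mouse B6_6 and to 1270 without RC/RC mouse RC139. In unsorted kidney tissue, more cells of a type and more RNA per cell cannot be told apart.

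*Casp12* changed most. Its level was 2.72, 2.00, 2.62 and 2.69 CPM in WT mice B6_2, B6_3, B6_4 and B6_6, and 8.75, 12.8, 8.54 and 7.08 CPM in RC/RC mice RC105, RC139, RC140 and RC143. The lowest RC/RC mouse was thus well above the highest WT mouse, and RC/RC mouse RC139 stood above the other 3. The log2 fold change was 1.89 (standard error 0.22, adjusted p = 0.00111 from edgeR), or 3.69-fold with a 95% interval of 2.61 to 5.23.

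*Casp1* was at 2.05, 1.29, 1.31 and 1.41 CPM in the WT mice and at 3.33, 3.86, 4.24 and 2.62 CPM in the RC/RC mice in the same order. The groups did not overlap, and WT mouse B6_2 lay closest to the RC/RC mice. The increase was 2.31-fold (95% interval 1.56 to 3.43, log2 fold change 1.21, standard error 0.25, adjusted p = 0.0142 from edgeR).

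*Casp4* was at 2.05, 1.29, 1.61 and 1.88 CPM in the WT mice and at 3.86, 5.19, 3.38 and 3.47 CPM in the RC/RC mice. Here too all RC/RC mice were above all WT mice, with RC/RC mouse RC139 highest as for *Casp12*. The increase was 2.32-fold (95% interval 1.59 to 3.38, adjusted p = 0.0113 from edgeR), on 27 to 43 reads in WT and 63 to 101 reads in RC/RC mice. Over all genes 12.6% had every RC/RC mouse above every WT mouse, 7.06% had every RC/RC mouse below and 19.6% either, and 3 of the 7 members were apart, all with RC/RC above.

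The 4 members of the apoptotic branches kept overlapping ranges. *Casp8* was at 26.4, 28.3, 29.0 and 35.4 CPM in the WT mice and at 27.8, 26.8, 23.7 and 33.3 CPM in the RC/RC mice. *Casp9* was at 31.2, 36.2, 34.4 and 36.4 CPM in the WT mice and at 33.7, 29.9, 33.4 and 33.4 CPM in the RC/RC mice. For both, the spread within a group was larger than the difference between the groups. *Casp2* ranged from 16.2 to 20.7 CPM in WT mice and from 15.0 to 21.9 CPM in RC/RC, and *Casp6* from 18.4 to 24.1 CPM in WT mice and from 19.3 to 20.4 CPM in RC/RC. The fold changes were 0.977 for *Casp2*, 0.909 for *Casp6*, 0.936 for *Casp8* and 0.943 for *Casp9*, with adjusted p-values of 0.446 to 0.898 from edgeR. The 95% intervals were 0.779 to 1.22 for *Casp2*, 0.763 to 1.08 for *Casp6*, 0.756 to 1.16 for *Casp8* and 0.813 to 1.09 for *Casp9*.

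**Figure D2:**
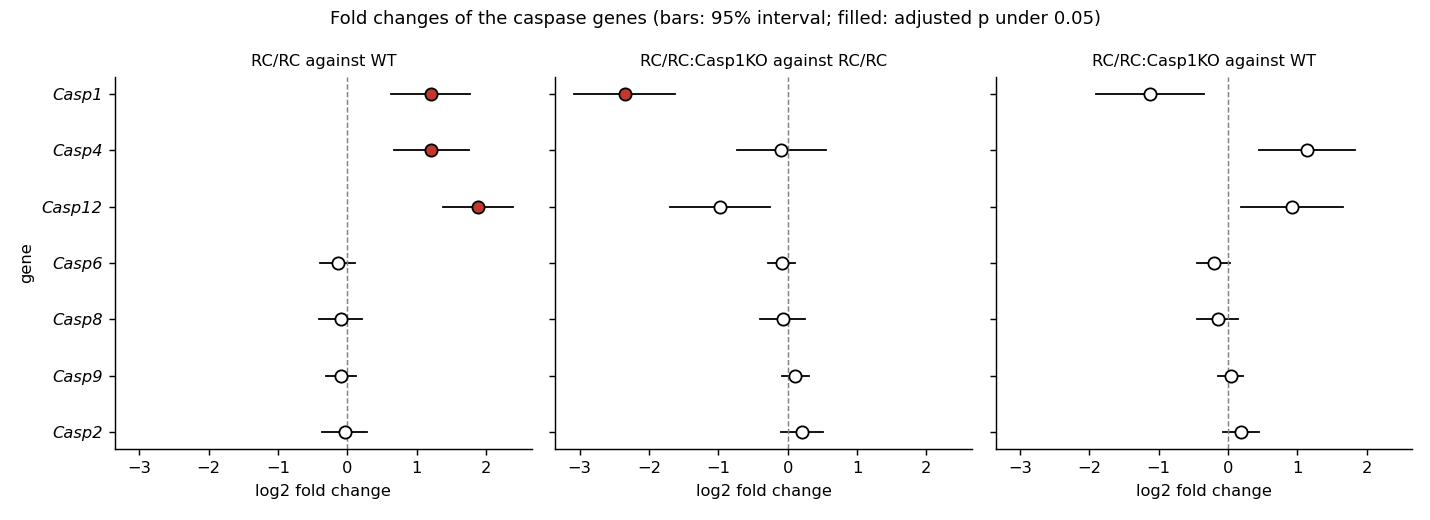
Log2 fold change (x axis) of each caspase gene (y axis) in the 3 comparisons, with 95% intervals as bars; filled points passed an adjusted p of 0.05 in the fit over all genes. *Casp1*, *Casp4* and *Casp12* are filled in RC/RC against WT, *Casp1* alone is filled in RC/RC:*Casp1*KO against RC/RC, but none is filled in RC/RC:*Casp1*KO against WT.

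The second comparison, RC/RC:*Casp1*KO against RC/RC, asks what the *Casp1* deletion changed in the cystic kidney, and the targeted gene comes first because it checks the labels. *Casp1* was at 0.665, 0.382, 1.06 and 0.667 CPM in RC/RC:*Casp1*KO mice Del3_42, Del3_60, Del3_70 and Del3_105, from 12, 10, 23 and 14 reads. Each of these was below every RC/RC mouse and also below every WT mouse, so the transcript level fits the label of all 4 mice, although none of the 4 was at 0. Of all genes, 8.67% had every RC/RC:*Casp1*KO mouse below every RC/RC mouse, 11.8% had every one above and 20.4% either. *Casp1* was the only member apart. Its level was 0.196 of that in RC/RC (95% interval 0.119 to 0.325, log2 fold change −2.35, standard error 0.32, adjusted p = 0.00514 from edgeR). *Casp1* was the only 1 of the 7 members called in this comparison, where 11.6% of 15428 genes were called, with 7.23% up and 4.41% down. Here 31.7% of genes had an unadjusted p under 0.05, and DESeq2 called 17.3% of the 18320 it gave an adjusted p. The count over all genes, 1797, depended on single mice. This fell to 754 and 438 without RC/RC mice RC139 and RC140 and to 810, 606 and 440 without RC/RC:*Casp1*KO mice Del3_42, Del3_60 and Del3_105, and rose to 2789 without RC/RC mouse RC105.

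Neither neighbour of *Casp1* passed the test with all 8 mice. *Casp4* was at 2.66, 2.67, 5.80 and 3.91 CPM in RC/RC:*Casp1*KO mice Del3_42, Del3_60, Del3_70 and Del3_105, which spans the RC/RC range of 3.38 to 5.19 CPM. Mice Del3_42 and Del3_60 were below all RC/RC mice and mouse Del3_70 was above them. The fold change was 0.939 (95% interval 0.601 to 1.47, log2 fold change −0.090, adjusted p = 0.857 from edgeR). Its sign turned to 0.083 on the log2 scale without RC/RC mouse RC139, to 0.037 without RC/RC:*Casp1*KO mouse Del3_42 and to 0.044 without mouse Del3_60. Without Del3_70 it was −0.37 (adjusted p = 0.362 from edgeR).

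*Casp12* was at 3.33, 3.05, 8.15 and 4.43 CPM in RC/RC:*Casp1*KO mice Del3_42, Del3_60, Del3_70 and Del3_105, against 7.08 to 12.8 CPM in RC/RC. Mice Del3_42, Del3_60 and Del3_105 were below every RC/RC mouse, and mouse Del3_70 was above RC/RC mouse RC143. The fold change was 0.507 (95% interval 0.308 to 0.837, log2 fold change −0.98, standard error 0.32), and it did not pass the correction (adjusted p = 0.0752 from edgeR, unadjusted p = 0.0132). Without RC/RC:*Casp1*KO mouse Del3_70 the log2 fold change was −1.36 and passed (adjusted p = 0.0173 from edgeR), and with all 8 mice it also passed under DESeq2's Wald test (adjusted p = 0.0216). Over the other mice left out in turn and the other alternatives, adjusted p was up to 0.198, so the call for *Casp12* rests on the inclusion of mouse Del3_70 and on the test.

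The remaining members overlapped between the groups. *Casp2* was at 18.5 to 24.2 CPM in RC/RC:*Casp1*KO mice, a fold change of 1.16 (95% interval 0.937 to 1.43) against RC/RC. *Casp6* was at 17.9 to 19.5 CPM, a fold change of 0.942 (95% interval 0.823 to 1.08). *Casp8* was at 22.4 to 31.4 CPM, a fold change of 0.954 (95% interval 0.762 to 1.19). *Casp9* was at 33.4 to 36.7 CPM, a fold change of 1.08 (95% interval 0.942 to 1.24). None of these 4 passed the test, with adjusted p-values of 0.315 to 0.778 from edgeR.

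The third comparison, RC/RC:*Casp1*KO against WT, uses both mutations together, and it shares its WT mice with the first comparison and its RC/RC:*Casp1*KO mice with the second. None of the 7 members passed (0 of 7, where 2.03% of 15346 genes were called, 1.13% higher and 0.893% lower), and 3 had an unadjusted p under 0.05, as did 21.8% of all genes. The levels of all 4 RC/RC:*Casp1*KO mice were below all WT mice for *Casp1*, at 0.382 to 1.06 against 1.29 to 2.05 CPM. They were above all WT mice for *Casp4*, at 2.66 to 5.80 against 1.29 to 2.05 CPM, and for *Casp12*, at 3.05 to 8.15 against 2.00 to 2.72 CPM. Over all genes 13.9% did not overlap in this comparison, 7.4% with RC/RC:*Casp1*KO higher and 6.54% with it lower, against 3 of the 7 members. The fold change was 0.459 for *Casp1* (95% interval 0.267 to 0.788, unadjusted p = 0.0098, adjusted p = 0.128 from edgeR). It was 2.21 for *Casp4* (95% interval 1.37 to 3.56, unadjusted p = 0.0046, adjusted p = 0.0952) and 1.90 for *Casp12* (95% interval 1.14 to 3.16, unadjusted p = 0.0193, adjusted p = 0.159). DESeq2's Wald test called 2 of the 7, *Casp1* (adjusted p = 0.0489) and *Casp4* (adjusted p = 0.0159), where it called 7.57% of the 18312 genes it gave an adjusted p. Without RC/RC:*Casp1*KO mouse Del3_70 none was called by edgeR, and the log2 fold change of *Casp12* was 0.53 (adjusted p = 0.324). *Casp2*, *Casp6*, *Casp8* and *Casp9* overlapped between the groups, with fold changes of 0.866 to 1.14 and adjusted p-values of 0.279 to 0.793 from edgeR. The count of 311 genes called here fell to 108 to 147 without WT mouse B6_2, B6_3 or B6_6 or RC/RC:*Casp1*KO mouse Del3_60, Del3_70 or Del3_105, and rose to 547 without RC/RC:*Casp1*KO mouse Del3_42.

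Ratios within a library compare *Casp1* with its neighbours independently of how libraries are scaled. The ratio of *Casp1* to *Casp4* reads, with 0.5 added to each count, was 1.00, 1.00, 0.815 and 0.753 in WT mice B6_2, B6_3, B6_4 and B6_6, and 0.862, 0.746, 1.25 and 0.755 in RC/RC mice RC105, RC139, RC140 and RC143. In RC/RC:*Casp1*KO mice Del3_42, Del3_60, Del3_70 and Del3_105 it was 0.258, 0.149, 0.186 and 0.176. *Casp1* and *Casp4* were thus counted about equally often in WT and RC/RC kidneys, while every RC/RC:*Casp1*KO mouse was far below. The mean log2 ratio of RC/RC and WT differed by −0.0037 (p = 0.971, exact two-sided permutation test), and that of RC/RC:*Casp1*KO was lower than RC/RC by 2.23 and lower than WT by 2.23 (p = 0.0286 each, exact permutation test, the smallest that 4 mice against 4 allow, adjusted p = 0.0343 over the 6 ratio comparisons).

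The ratio of *Casp1* to *Casp12* fell in 2 steps. It was 0.610 ± 0.116 in WT, 0.389 ± 0.0806 in RC/RC and 0.156 ± 0.0355 in RC/RC:*Casp1*KO mice (SD, n = 4). No RC/RC mouse, at 0.304 to 0.498, reached the lowest WT mouse at 0.505, and no RC/RC:*Casp1*KO mouse, at 0.130 to 0.207, reached the lowest RC/RC mouse. The log2 ratio of RC/RC was lower than that of WT by 0.65, and that of RC/RC:*Casp1*KO was lower than RC/RC by 1.32 and lower than WT by 1.97 (p = 0.0286 each, exact permutation test, adjusted p = 0.0343). So *Casp12* rose more than *Casp1* in RC/RC kidneys, and *Casp1* fell relative to both neighbours in RC/RC:*Casp1*KO kidneys. The adjustment covers all 6 ratio comparisons, and those with RC/RC:*Casp1*KO mice test the deleted gene itself. The adjusted p of RC/RC against WT depends on their inclusion. With 1 mouse left out, 3 against 4 allow no p under 0.0571, which every such ratio with separated groups then had.

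**Figure D3:**
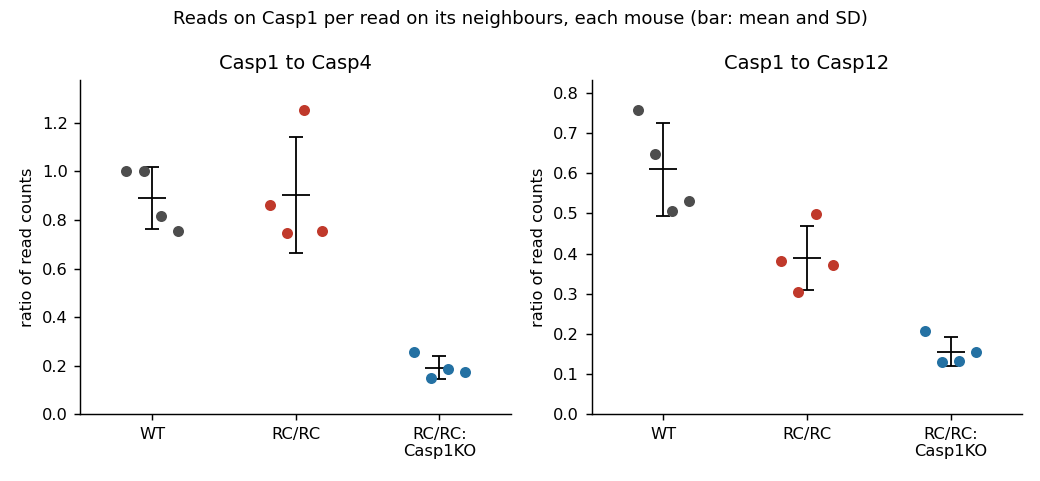
Ratio of *Casp1* reads to *Casp4* reads (left) and to *Casp12* reads (right) on the y axis, by group on the x axis; points are single mice and bars the mean and SD of 4 mice. WT and RC/RC mice share the range of 0.746 to 1.25 for *Casp4*, and the RC/RC:*Casp1*KO mice lie at 0.149 to 0.258.

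Leukocyte markers, like the inflammatory caspases, were higher in RC/RC than in WT kidneys. All 4 pan-leukocyte genes rose in RC/RC against WT, with log2 fold changes of 0.87 for *Ptprc*, the CD45 phosphatase, 1.59 for the tetraspanin *Cd53*, 1.77 for *Coro1a* and 1.27 for *Laptm5*, the most abundant (adjusted p-values of 0.000675 to 0.00779 from edgeR). Their summed level was 46.1 to 62.9 CPM in WT, 99.5 to 154 CPM in RC/RC and 54.5 to 153 CPM in RC/RC:*Casp1*KO mice. Of the 12 macrophage and dendritic cell markers 9 rose in RC/RC, among them *Lyz2* by 2.54 and *Cx3cr1* by 1.99 on the log2 scale, and their summed level was 137 ± 10.7, 356 ± 53.4 and 255 ± 88.2 CPM in the 3 groups, in the order WT, RC/RC, RC/RC:*Casp1*KO (SD, n = 4). *Csf1r*, the most abundant of them in WT, had 70.3, 99.7 and 111 CPM in the 3 groups and was not called in RC/RC against WT, and *Lyz2*, at 149 CPM, was above it in RC/RC. Of the other leukocyte lists, 6 of 7 T cell genes and 4 of 4 B cell genes rose in RC/RC, and edgeR called none of the 3 neutrophil genes tested, with 1 at an unadjusted p under 0.05 and 1 called by DESeq2. The neutrophil genes *Ly6g* and *Mpo* had no read in WT and RC/RC:*Casp1*KO libraries and at most 3 in an RC/RC library. In RC/RC:*Casp1*KO against RC/RC, none of the 4 pan-leukocyte genes (2 at an unadjusted p under 0.05, 2 by DESeq2), 1 of the 12 macrophage and dendritic cell genes (*Cd14*, log2 fold change −1.12, adjusted p = 0.0259 from edgeR) and 1 of the 4 B cell genes (*Cd79b*, −0.95, adjusted p = 0.0456) were lower. Of all genes, edgeR called 12.9% in RC/RC against WT and 11.6% in RC/RC:*Casp1*KO against RC/RC. Without RC/RC:*Casp1*KO mouse Del3_70, edgeR called 3 of the 4 pan-leukocyte genes, *Cd53*, *Coro1a* and *Laptm5*, and 6 of the 12 macrophage and dendritic cell genes, all lower, among them *Lyz2* (log2 fold change −1.69, adjusted p = 0.00599), where 9.04% of 15569 genes were called. With all mice, 1 of the 4 pan-leukocyte and 3 of the 12 macrophage and dendritic cell genes had a positive fold change against RC/RC. *Ptprc* was at 31.0 ± 19.0 CPM in RC/RC:*Casp1*KO and 28.6 ± 5.82 CPM in RC/RC mice. *Itgax*, which encodes CD11c, was at 9.94 ± 7.07 and 8.91 ± 2.27 CPM, and *Clec9a* at 3.77 ± 1.38 and 3.29 ± 1.14 CPM.

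Set against these markers, the caspases differed from one another. *Casp1* was 2.94% ± 0.254 of the summed leukocyte CPM in WT and 2.75% ± 0.551 in RC/RC, and 0.825% ± 0.152 in RC/RC:*Casp1*KO kidneys (SD, n = 4). *Casp4* was 3.35% ± 0.512, 3.09% ± 0.396 and 4.50% ± 0.718, and every RC/RC:*Casp1*KO mouse, at 3.80% to 5.30%, was above every RC/RC mouse, at 2.68% to 3.49%. *Casp12* was 4.94% ± 0.727, 7.15% ± 0.897 and 5.49% ± 0.427, with RC/RC mice at 6.08% to 8.28% and RC/RC:*Casp1*KO mice at 5.00% to 6.01%. Against the summed macrophage and dendritic cell genes the groups were less apart. There *Casp4* was 0.926% to 1.38% in RC/RC mice and 1.14% to 1.75% in RC/RC:*Casp1*KO mice, and *Casp12* 2.10% to 3.39% and 1.30% to 2.13%, so RC/RC and RC/RC:*Casp1*KO overlapped for both. *Casp1* was 0.798% to 1.24% in RC/RC and 0.163% to 0.372% in RC/RC:*Casp1*KO mice, which did not overlap. RC/RC:*Casp1*KO mouse Del3_70, which was high in all 3 genes, was also the highest of its group in leukocyte markers, and WT mouse B6_2, the highest of WT in *Casp1*, was the highest of WT in them. The part of leukocyte content in the levels of *Casp1*, *Casp4* and *Casp12* was not tested.

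**Figure D4:**
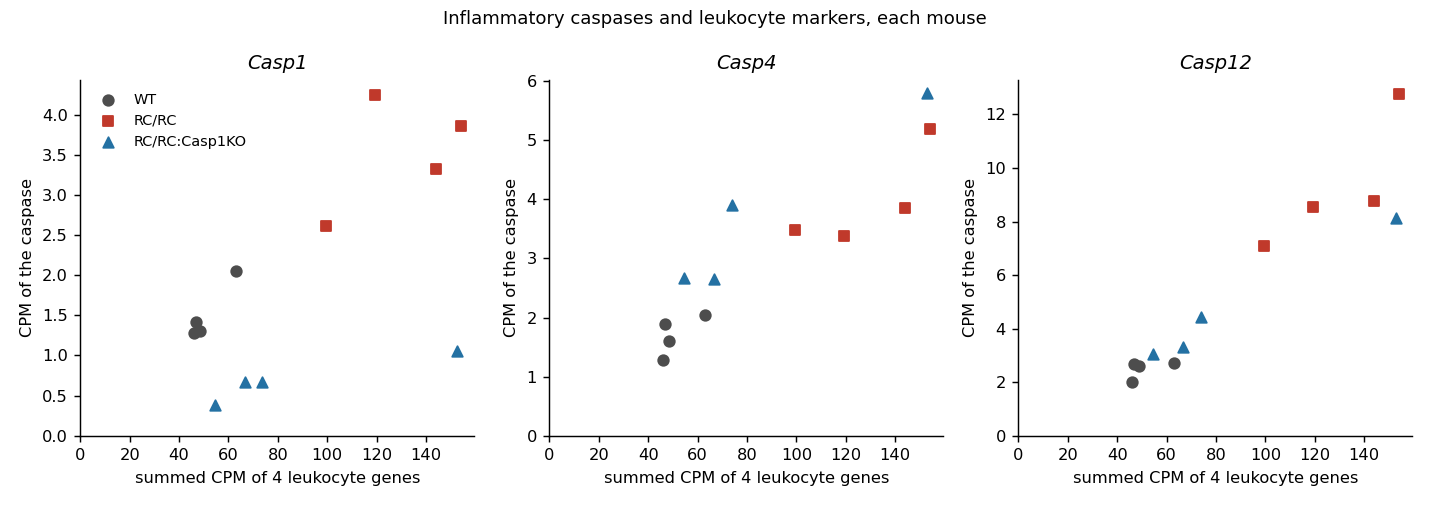
CPM of *Casp1*, *Casp4* and *Casp12* (y axes) against the summed CPM of *Ptprc*, *Cd53*, *Coro1a* and *Laptm5* (x axes); each point is 1 mouse, with group by colour and shape. WT and RC/RC mice run along a rising band in all 3 panels, and the RC/RC:*Casp1*KO mice lie below it for *Casp1*, with mouse Del3_70 at 153 CPM of leukocyte genes and 1.06 CPM of *Casp1*.

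The genes that act with the inflammatory caspases were examined as lists. Of 15 inflammasome sensors and adaptor genes, 12 passed the filter on low counts in RC/RC against WT and 1 was called by edgeR, with 5 at an unadjusted p under 0.05 and 4 called by DESeq2, beside 12.9%, 29.2% and 16.7% of all genes by these criteria. The edgeR call was *Aim2*, the sensor of cytosolic DNA, at 0.722 ± 0.141 CPM in WT mice and 2.35 ± 0.188 CPM in RC/RC (log2 fold change 1.69, adjusted p = 0.00296 from edgeR). *Nlrp3* was at 0.686 ± 0.129 and 1.54 ± 0.626 CPM (log2 fold change 1.16, adjusted p = 0.0660) and *Pycard*, which encodes ASC, at 8.86 ± 2.14 and 13.5 ± 2.25 CPM (0.61, adjusted p = 0.0722), and neither passed in edgeR. *Nlrp6*, the most abundant sensor on the list, was at 110 ± 47.3 CPM in WT mice and 65.6 ± 18.6 CPM in RC/RC mice (−0.75, adjusted p = 0.157). The median log2 fold change of the 12 was 0.61, beside −0.020 over all genes. In RC/RC:*Casp1*KO against RC/RC, *Pycard* fell to 8.67 ± 1.34 CPM (log2 fold change −0.65, adjusted p = 0.0369) and *Nlrp6* rose to 151 ± 58.7 CPM (1.19, adjusted p = 0.0349, but 0.0535 without RC/RC:*Casp1*KO mouse Del3_70), while the median of the 11 tested was −0.0061 beside −0.027 over all genes. *Aim2* stayed at 2.29 ± 1.05 CPM, with a log2 fold change of −0.052 (adjusted p = 0.924).

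Of the substrates and pore genes of this branch 3 of 6 tested rose in RC/RC against WT, where edgeR called 12.9% of all genes. *Il1b* was at 1.08 ± 0.271 CPM in WT mice and 3.07 ± 0.964 CPM in RC/RC (log2 fold change 1.51, adjusted p = 0.0141 from edgeR). *Gsdmd*, the gene of gasdermin D, was at 4.90 ± 1.01 and 8.27 ± 1.21 CPM (0.75, adjusted p = 0.0391), and *Panx1*, which encodes a channel that releases ATP, at 0.815 ± 0.401 and 4.15 ± 1.49 CPM (2.34, adjusted p = 0.00551). *Il18* was not called at 1.19 ± 0.134 and 2.12 ± 0.513 CPM (adjusted p = 0.0660). None of the 6 was called by edgeR in RC/RC:*Casp1*KO against RC/RC (1 at an unadjusted p under 0.05, 1 by DESeq2), where the median log2 fold change was −0.18, all 6 had a negative fold change, *Il1b* was at 2.97 ± 1.78 CPM, *Gsdmd* at 7.87 ± 1.76 CPM and *Panx1* at 2.19 ± 0.684 CPM (adjusted p = 0.0846). Against WT none was called by edgeR, with 4 at an unadjusted p under 0.05 and 3 called by DESeq2. Of the 8 guanylate-binding proteins, interferon-induced proteins that expose bacterial lipopolysaccharide to the product of *Casp4*, *Gbp2* (log2 fold change 0.96) and *Gbp5* (0.90) rose in RC/RC. In the second comparison and in the third edgeR called none of the 8, with 1 and 3 at an unadjusted p under 0.05 and 0 and 1 called by DESeq2. Of all genes, edgeR called 11.6% and 2.03% in these comparisons.

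**Figure D5:**
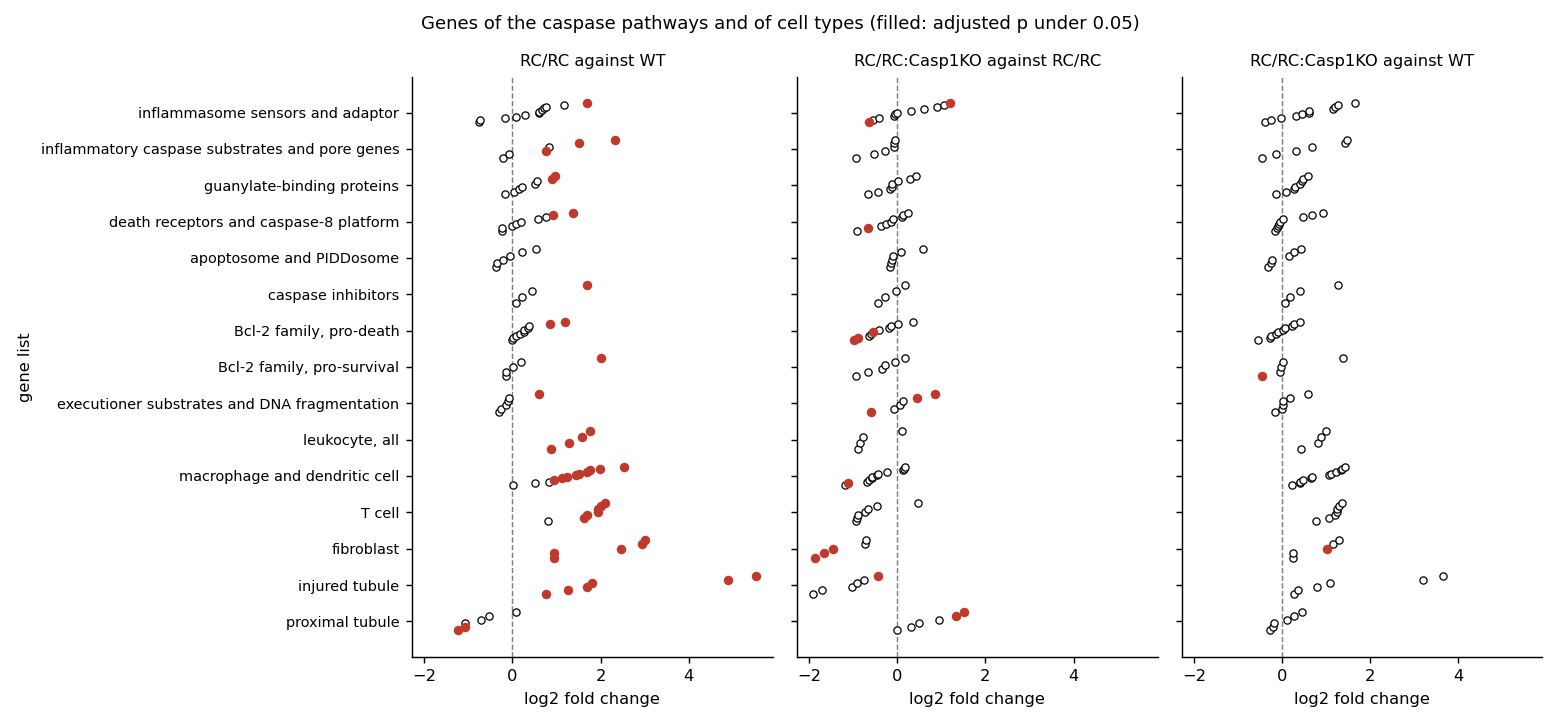
Log2 fold change (x axis) of the tested genes of 15 lists (y axis) in the 3 comparisons; each point is a gene and filled points passed an adjusted p of 0.05 in the fit over all genes. Leukocyte, fibroblast and injured tubule genes lie to the right in RC/RC against WT, and the apoptosome and PIDDosome list has no filled point in any panel.

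The genes around the apoptotic caspases were examined in the same way. Of the 9 genes of the death receptor and caspase-8 platform edgeR called 2 in RC/RC against WT, both higher. With 4 at an unadjusted p under 0.05 and 4 called by DESeq2, these counts stand beside 12.9%, 29.2% and 16.7% of all genes. The edgeR calls were the kinase gene *Ripk3* (log2 fold change 1.37, adjusted p = 0.0266 from edgeR) and *Mlkl*, which encodes its pore-forming target (0.92, adjusted p = 0.0193). The receptor gene *Tnfrsf1a* fell from 102 ± 19.1 CPM in RC/RC to 64.4 ± 7.33 CPM in RC/RC:*Casp1*KO kidneys (−0.67, adjusted p = 0.0244). None of the 6 apoptosome and PIDDosome genes was called by edgeR in any of the 3 comparisons, with 2, 1 and 1 at an unadjusted p under 0.05 and 0, 1 and 0 called by DESeq2. *Cycs*, which encodes cytochrome c, was the most abundant. Of the pro-death Bcl-2 genes, *Bok* (1.20) and *Bbc3* (0.84) of 10 tested rose in RC/RC, and 3 of 10 fell in RC/RC:*Casp1*KO against RC/RC, *Bok* by 0.98, *Bak1* by 0.90 and *Bax* by 0.55 on the log2 scale, where the median was −0.48. In that comparison edgeR called 11.6% of all genes, 4.41% of them lower in RC/RC:*Casp1*KO kidneys when counted over all genes tested. Of the pro-survival genes *Bcl2a1d*, a leukocyte-expressed gene of several near copies, rose in RC/RC by 2.02 on the log2 scale. *Bcl2l1*, which encodes Bcl-xL, fell in RC/RC:*Casp1*KO against WT by 0.46 (adjusted p = 0.0443 from edgeR, but 0.121 without RC/RC:*Casp1*KO mouse Del3_70). Of 4 caspase inhibitor genes *Birc5*, better known for its role in mitosis, rose in RC/RC by 1.68 on the log2 scale, and *Xiap*, the direct inhibitor of caspase-9, was at 93.2, 98.2 and 97.4 CPM in the 3 groups and was not called. Among executioner substrates *Lmna* rose in RC/RC (0.60) and fell in RC/RC:*Casp1*KO against RC/RC (−0.59), where *Acin1* (0.44) and *Dffb* (0.87) rose.

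Over the 22 lists, which hold 144 genes beside the 7 members, 52 of 132 tested genes were called in RC/RC against WT, 18 of 131 when RC/RC:*Casp1*KO was set against RC/RC, with 4 of 129 against WT. Over all genes 12.9%, 11.6% and 2.03% were called in these comparisons, and the list genes called were 39.4%, 13.7% and 3.10% of those tested. The lists were chosen with earlier results of these data known, so their shares are not independent of these data. The 18 fell to 3 without RC/RC mouse RC140 or RC/RC:*Casp1*KO mouse Del3_60 or Del3_105, to 4 without RC/RC mouse RC139 and to 5 without RC/RC:*Casp1*KO mouse Del3_42, and rose to 30 without RC/RC:*Casp1*KO mouse Del3_70. Of the genes named above, the calls of *Bax* (adjusted p = 0.0717 from edgeR), *Bok* (0.0558) and *Nlrp6* in RC/RC:*Casp1*KO against RC/RC were lost without Del3_70. In that comparison *Bbc3* (0.0450), *Bcl2a1d* (0.0479) and *Ripk3* (0.0311) were then called lower. The 4, among them *Bcl2l1*, *Calb1* and *Dcn*, fell to 1 when any mouse other than WT mouse B6_4 and RC/RC:*Casp1*KO mouse Del3_42 was left out, and rose to 7 without the latter.

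The genes most like each member over mice were read from Pearson's r of log2 CPM among 14165 genes with a mean of at least 1 CPM, as a description, since all values come from the same 12 libraries and share the group differences. For *Casp12* these were *Socs3*, an inhibitor of cytokine signalling (r = 0.992), *Lox*, a collagen cross-linking enzyme (r = 0.991), and the TNF family ligand *Tnfsf8* (r = 0.987). *Socs3* was at 2.46 ± 0.518 CPM in WT, 28.9 ± 9.29 CPM in RC/RC and 4.05 to 18.7 CPM in RC/RC:*Casp1*KO mice, with Del3_70 the highest as for *Casp12*. For *Casp4* they were *Aim2* (r = 0.966), the mechanosensitive channel gene *Piezo2* (r = 0.966) and the cationic amino acid transporter gene *Slc7a2* (r = 0.963). For *Casp1* they were *Ak5* (r = 0.928), the thrombin receptor gene *F2r* (r = 0.926) and *Cyp1b1* (r = 0.922) over 12 mice. Over the 8 WT and RC/RC mice alone the most like genes of *Casp1* were other ones, *Rgs10* (r = 0.990), *Itgb7* (r = 0.989) and *Fcer1g* (r = 0.988), which are known from leukocytes. Among the members themselves, *Casp4* and *Casp12* had r = 0.893 over the 12 mice, *Casp1* and *Casp12* 0.608 and *Casp1* and *Casp4* 0.231.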

How the data were processed

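RNA-seq of kidney tissue was available for 12 mice. The authors deposited raw read counts per gene, made without normalization, together with gene coordinates and lengths. CASAVA 1.8, STAR and mm10 are named in the submitters' processing notes, and the counting tool, annotation and strand setting are not given in the sources used here. FPKM, fold changes and p-values of the authors' own comparisons are also in the table and were not used. Columns name a group and a mouse number, so each was assigned to a group only. All columns of counts could be assigned (0 were of unknown group).

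The members and gene lists were chosen with earlier results of these data known. Pairs of groups were fitted with edgeR 4.0.16 (R 4.3.3), TMM factors, filterByExpr, the quasi-likelihood test and Benjamini-Hochberg adjustment over all genes tested, with 0.05 as the threshold. All 7 members passed the filter in each comparison. Standard errors were derived from the fold change and the F of the quasi-likelihood test. CPM uses TMM factors of all 12 libraries, and correlations used a prior count of 2. Ratios were compared by exact permutation of mice. The counts in all 18 pairs of mice of the same group differed by more than sampling noise. The fits were tested on simulated data. Alternatives were the Wald test of DESeq2 1.42.0, RLE in place of TMM, no factors beyond library size, a looser filter (1 count in any mouse), a stricter one (10 counts in each mouse), 1 dispersion for all 12 mice, and each mouse left out in turn.

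Named genes were all members, list genes by size of change, abundance or as defining genes, genes within 500000 bases of *Casp1*, and the 3 most like each member. Some of these are not reported here. Deposited coordinates were compared with RefSeq GRCm38, and starts differed by 0 to 141 bases. Promoters are from RefSeq (GRCm38.p6), where all 7 members matched. Near copies at 95% identity over 100 bases were sought among reference transcripts. None was found for *Casp2*, *Casp4* and *Casp12*. *Casp1* had 1 of 110 bases, *Gm67740*, *Casp6* shared 328 bases with *Mcub*, and *Casp8* and *Casp9* had 2 each, so their counts may hold reads of these. *Casp9* overlaps *Ctrc* and *Cela2a* on the opposite strand, both with 0 counts.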

Additional observations from a re-analysis of the deposited data

Results flagged for a closer look

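In 3 of the 21 groups of 4 mice examined, 1 for each member and genotype, a single mouse lay apart from its group by Dixon's criterion at the 95% level, which chance alone meets in about 1 of 20 groups. In WT, mouse B6_2 had the highest *Casp1* level, 2.05 CPM against 1.29 to 1.41 CPM in the other 3. In RC/RC, mouse RC139 had the lowest *Casp9* level, 29.9 CPM against 33.4 to 33.7 CPM in the others. In WT, mouse B6_3 had the lowest *Casp12* level, 2.00 CPM against 2.62 to 2.72 CPM in the others.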

How the results depend on the processing

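No paired analysis was possible because the columns carry no replicate numbers and the groups hold different animals. A block on the split of libraries seen in WT and RC/RC:*Casp1*KO was not fitted, since no label ties a column to it. In RC/RC against WT the calls of *Casp1*, *Casp4* and *Casp12* held under all 14 alternatives, as did that of *Casp1* in RC/RC:*Casp1*KO against RC/RC. DESeq2 called 3027, 3172 and 1387 genes in the 3 comparisons against 1971, 1797 and 311, with 2 members and 34 list genes in the second comparison, RC/RC:*Casp1*KO against RC/RC, 2 members and 19 list genes in the third, against WT, adding *Casp12* (−0.98) in the former and *Casp1* (−1.16) and *Casp4* (1.12) in the latter. Library size alone gave 993 genes and 7 list genes in the second, and it turned *Casp2* (0.072) and *Casp9* (0.011) in RC/RC against WT. It moved the share of higher calls from 75.4% to 86.1%, from 62.1% to 82.0% and from 55.9% to 79.8%, and the median of all genes to 0.14 on the log2 scale in RC/RC:*Casp1*KO against WT. There, 10 counts in every mouse gave 167 genes and 1 list gene, and a shared dispersion 7 list genes. The cause was not tested.

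With 1 mouse left out the genes called ranged from 1162 to 2440, 438 to 2789 and 108 to 547, list genes from 3 to 30 and 1 to 7 in the later comparisons, and members from 1 to 2 in the second. Log2 fold changes ranged from −0.17 to 0.042 for *Casp2* in RC/RC against WT, from −0.37 to 0.083 for *Casp4*, −0.16 to 0.039 for *Casp8* and −1.36 to −0.77 for *Casp12* in the second, and from −0.0070 to 0.067 for *Casp9* against WT. Log2 ratios of *Casp1* to *Casp4* ranged from −0.17 to 0.077, −2.38 to −2.06 and −2.39 to −2.12, and of *Casp1* to *Casp12* from −0.78 to −0.54, −1.46 to −1.19 and −2.12 to −1.86. *Casp1* in RC/RC:*Casp1*KO kidneys rests on 10 to 23 reads a mouse, and *Casp14* and *Casp16* were too low to test.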

Other observations

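*Casp14*, a caspase of the skin barrier, had 5 reads over the 12 libraries and *Casp16* had 10, with at most 2 in any mouse, so no change of either was detectable at this depth.

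Marker genes of some other cell types were also called, beside those of leukocytes. All 5 fibroblast genes rose in RC/RC against WT, among them *Dcn* by 2.47 and *Col1a1* by 3.00 on the log2 scale, and 3 of 5 fell in RC/RC:*Casp1*KO against RC/RC, *Dcn* by 1.46 (adjusted p = 0.0088 from edgeR). *Dcn* was the 1 of the 5 that edgeR called in RC/RC:*Casp1*KO against WT (1.02, adjusted p = 0.00799), with 3 at an unadjusted p under 0.05 and 2 called by DESeq2. All 6 genes of injured tubule rose in RC/RC, *Lcn2* by 5.54 and *Havcr1* by 4.90, and *Krt8* was the 1 of the 6 that edgeR called lower in RC/RC:*Casp1*KO than in RC/RC (−0.43, adjusted p = 0.0338), with 5 at an unadjusted p under 0.05 and 3 called by DESeq2. *Lcn2* was at 49.5 to 106 CPM in RC/RC mice and at 4.66, 8.10, 62.9 and 12.8 CPM in RC/RC:*Casp1*KO mice Del3_42, Del3_60, Del3_70 and Del3_105. *Havcr1* was at 40.3 to 85.4 CPM in RC/RC mice and at 6.10, 6.22, 42.5 and 13.1 CPM in the RC/RC:*Casp1*KO mice in the same order. For both, mouse Del3_70 lay within the RC/RC range and the other 3 below it. Without Del3_70 edgeR called 4 of the 6 injured tubule genes lower than in RC/RC, *Lcn2* (log2 fold change −3.26, adjusted p = 0.00725), *Havcr1* (−2.70, adjusted p = 0.00805), *Sox9* and *Vcam1*, but no longer *Krt8* (adjusted p = 0.0536), and it called 4 of the 5 fibroblast genes. Of 6 proximal tubule genes *Cubn* and *Slc5a2* fell in RC/RC and *Cubn* (1.34) and *Lrp2* (1.52) were higher in RC/RC:*Casp1*KO than in RC/RC. Of 4 genes of the thick ascending limb and distal tubule *Slc12a3* fell by 2.03 and *Calb1* by 2.17 in RC/RC, and *Nphs1* fell among 4 podocyte genes. *Slc12a3* was higher in RC/RC:*Casp1*KO than in RC/RC (adjusted p = 0.0454 from edgeR), but was not called without Del3_70 (adjusted p = 0.0685). None of the 4 endothelial and 5 collecting duct genes tested was called by edgeR in any comparison, although 2, 3 and 0 endothelial genes had an unadjusted p under 0.05 in the 3 comparisons in turn and DESeq2 called 1, 2 and 0. Over all genes edgeR called 12.9%, 11.6% and 2.03% in these comparisons. An unadjusted p under 0.05 was reached by 29.2%, 31.7% and 21.8% of all genes, and DESeq2 called 16.7%, 17.3% and 7.57% of those it gave an adjusted p. Of the collecting duct genes, 5, 2 and 1 had an unadjusted p under 0.05 and DESeq2 called 1, 0 and 0.

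Over 12 mice the most like gene was *Maged1* for *Casp6* (r = 0.936), *Adam11* for *Casp8* (r = 0.872) and *Kcnc2* for *Casp9* (r = 0.908). None of these 3 was called in any of the 3 comparisons by edgeR.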
